A study of Mus musculus with 20 samples.

Results

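The genes described here encode 9 contractile proteins of the striated muscle sarcomere, and they were taken by name, as markers of fast and slow muscle fibres. They and the related gene lists below were chosen with earlier results of these data known. The 3 fast members are the myosin heavy chains Myh4, Myh1 and Myh2. The 6 slow members are the slow myosin heavy chain Myh7, the slow light chains Myl2 and Myl3, and the slow troponins Tnnt1, Tnni1 and Tnnc1. All 9 were listed among the 16669 genes of the deposited table, and all 9 passed the filter on low values used for testing.

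The study measured RNA from whole mouse ear pinnae by sequencing, in 20 libraries of 4 groups with 5 libraries each. The 3 treated groups had received 10 µl of a cytokine solution (0.1 µg/µl in PBS) injected into the skin of the right ear, the cytokine being IL-4 in one group, IL-13 in another and IL-31 in the last, and the control group had received PBS there. These cytokines are signalling proteins of allergic skin inflammation, and IL-31 is known for causing itch. Strain, age, sex, the time from injection to harvest and whether libraries came from separate animals are not stated in the labels, and p-values therefore reflect only the variation among these libraries, which may be technical in part. All ears were injected, so no untouched ear serves as a baseline.

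A mouse ear holds small striated muscles at its base beside skin and cartilage, so a whole-ear RNA sample carries muscle transcripts. Skeletal muscle fibres are classed by the myosin heavy chain they make. Myh4 marks the fastest, most glycolytic fibres (type IIB), Myh1 marks type IIX, Myh2 marks the more oxidative type IIA, and Myh7 marks slow type I fibres, whose light chains and troponins are in part shared with heart muscle.

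The values are log2 CPM, the log2 of read counts scaled to the size of the library (CPM) plus a small offset of 0.1556 CPM. The step between low values put the effective library size at 6.11 to 23.7 M reads (M, mega), with a median of 13.0 M. Group means were 11.3 ± 1.39 M in PBS, 10.7 ± 2.96 in IL-4, 13.3 ± 0.381 in IL-13 and 16.2 ± 4.29 in IL-31 (SD, n = 5 each). A count of 3 reads then corresponds to between 0.127 and 0.491 CPM. Markers of epidermis (5 of 5), dermis (4 of 4), cartilage (4 of 4) and skeletal muscle (4 of 4) were all listed, and none was at 0 throughout a group.

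The promoters of the 4 myosin heavy chain genes are shown because these genes are read as a composition below, and the 3 fast ones lie side by side on chromosome 11. Each line gives the 150 bases before a RefSeq transcription start in GRCm38.p6, 5′ to 3′ on the gene's strand. Capitals mark matches on either strand to CANNTG (the E-box, bound by myogenic factors), CATTCC (MCAT, bound by TEAD factors), the MEF2 consensus or TATAAA.
Myh4, chr11:67237662-67237811, plus strand: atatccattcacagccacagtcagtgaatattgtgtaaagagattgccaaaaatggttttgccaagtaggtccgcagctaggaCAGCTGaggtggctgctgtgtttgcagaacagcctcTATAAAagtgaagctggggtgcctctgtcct
Myh1, chr11:67199952-67200101, plus strand: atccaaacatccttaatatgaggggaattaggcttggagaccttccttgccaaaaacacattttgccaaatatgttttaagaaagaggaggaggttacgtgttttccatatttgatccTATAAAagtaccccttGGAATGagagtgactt
Myh2, chr11:67170877-67171026, plus strand: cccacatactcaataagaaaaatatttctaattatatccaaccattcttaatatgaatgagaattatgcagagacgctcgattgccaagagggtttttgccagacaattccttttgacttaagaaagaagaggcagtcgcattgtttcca
Myh7, chr14:54994627-54994776, minus strand: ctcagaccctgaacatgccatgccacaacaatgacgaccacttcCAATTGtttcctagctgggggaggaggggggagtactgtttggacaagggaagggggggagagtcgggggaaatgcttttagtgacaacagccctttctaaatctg
Myh7, second start, chr14:54994550-54994699, minus strand: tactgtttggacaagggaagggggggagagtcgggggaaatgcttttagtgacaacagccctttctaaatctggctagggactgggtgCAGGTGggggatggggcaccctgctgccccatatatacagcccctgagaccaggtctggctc

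In these windows a TATAAA began 31 bases before the Myh4 start and 32 before the Myh1 start, while neither Myh2 nor Myh7 held one. Over the whole 250 bases before the start, TATAAA was found in 12.4% of 32851 RefSeq mouse promoters. The MEF2 consensus was matched in Myh4, 182 bases before the start, and in Myh1, 211 bases before it, and in no window of another member. Both matches contain a further TATAAA. That consensus occurred in 2.92% of all promoters, the E-box in 66.2% and MCAT in 12.6%. The RefSeq start of Myh4 lies 217 bases from the one in GENCODE, and that of Myh1 lies 50 bases away. The RefSeq starts lie 8227 and 7762 bases away for Myl2, 21817 for Myl3, 19987 and 20077 for Tnni1 and 407 for Tnnt1. For Myl2, Myl3, Tnni1 and Tnnt1 the bases before the GENCODE start were therefore not searched. These matches describe the letters of the windows; binding was not measured.

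Myh4, the type IIB myosin heavy chain (ENSMUSG00000057003, GRCm38 chr11:67238029-67260446, plus strand), had the most negative estimate of the 9 members in all 3 comparisons with PBS. PBS libraries 1 to 5 held log2 CPM values of 8.75, 11.37, 9.55, 10.1 and 10.62. IL-4 libraries held 3.28, 3.08, 8.02, 2.71 and 7.17, and IL-13 libraries held 5.91, 8.58, 3.42, 5.26 and 5.43. IL-31 libraries held 7.94, 8.03, 6.84, 8.67 and 8.71. Every cytokine library was below every PBS library, and the IL-4 libraries split into 3 near 3 and 2 above 7. Myh4 fell with IL-4 by a log2 fold change of -5.22 ± 0.96 (SE here and below; limma adjusted p = 0.00195), which is 37.4-fold. With IL-13 it was -4.36 ± 0.96 (limma adjusted p = 0.00479), or 20.5-fold. These folds depended on the libraries with the highest Myh4: without IL-4 library 3 the IL-4 fold was 64.7, and without IL-13 library 2 the IL-13 fold was 33.7. Over all fits that left out 1 treated library the fold ran from 25.8 to 64.7 with IL-4 and from 13.8 to 33.7 with IL-13. With IL-31 the estimate was -2.04 ± 0.96 with a 95% interval of -4.04 to -0.04, and it did not pass (limma adjusted p = 0.203, unadjusted p = 0.0463). This SE is pooled over the groups, whose SDs of Myh4 were 1.00 in PBS, 2.53 with IL-4, 1.86 with IL-13 and 0.758 with IL-31. With only PBS and IL-31 in the fit it did not pass either (limma adjusted p = 0.135). In bulk tissue, fewer muscle fibres in the sample and less RNA per fibre cannot be told apart, here and in what follows.

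Myh1, the type IIX myosin heavy chain (ENSMUSG00000056328, chr11:67200052-67224575, plus strand), was the most abundant member per length. PBS libraries held log2 CPM values of 12.05, 12.39, 11.05, 11.81 and 11.66. IL-4 libraries held 7.65, 10.28, 10.5, 9.29 and 9.53, IL-13 libraries 8.6, 10.24, 8.7, 10.02 and 9, and IL-31 libraries 11.97, 11.83, 9.56, 11.28 and 11.32. All 10 IL-4 and IL-13 libraries were below all PBS libraries, while the IL-31 libraries overlapped them except for library 3. Myh1 fell with IL-4 (log2 fold change -2.34 ± 0.50, limma adjusted p = 0.0044) and with IL-13 (-2.48 ± 0.50, limma adjusted p = 0.00296). The IL-31 estimate was -0.60, with an interval from -1.64 to 0.44.

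Myh2, the type IIA myosin heavy chain (ENSMUSG00000033196, chr11:67171027-67197517, plus strand), held 8.5, 8.89, 7.89, 8.28 and 7.66 in PBS. It held 4.73, 7.87, 6.47, 6.54 and 6.61 with IL-4, then 5.98, 6.71, 6.49, 7.41 and 6.08 with IL-13, and 8.29, 9.06, 6.66, 8.45 and 8.7 with IL-31. IL-13 libraries were all below PBS, IL-4 library 2 reached into the PBS range, and 4 of the 5 IL-31 libraries were within or above it. Myh2 fell with IL-4 (-1.80 ± 0.47, limma adjusted p = 0.0125) and IL-13 (-1.71 ± 0.47, limma adjusted p = 0.015), and its IL-31 estimate was -0.01 with an interval from -0.99 to 0.96.

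**Figure D1:**
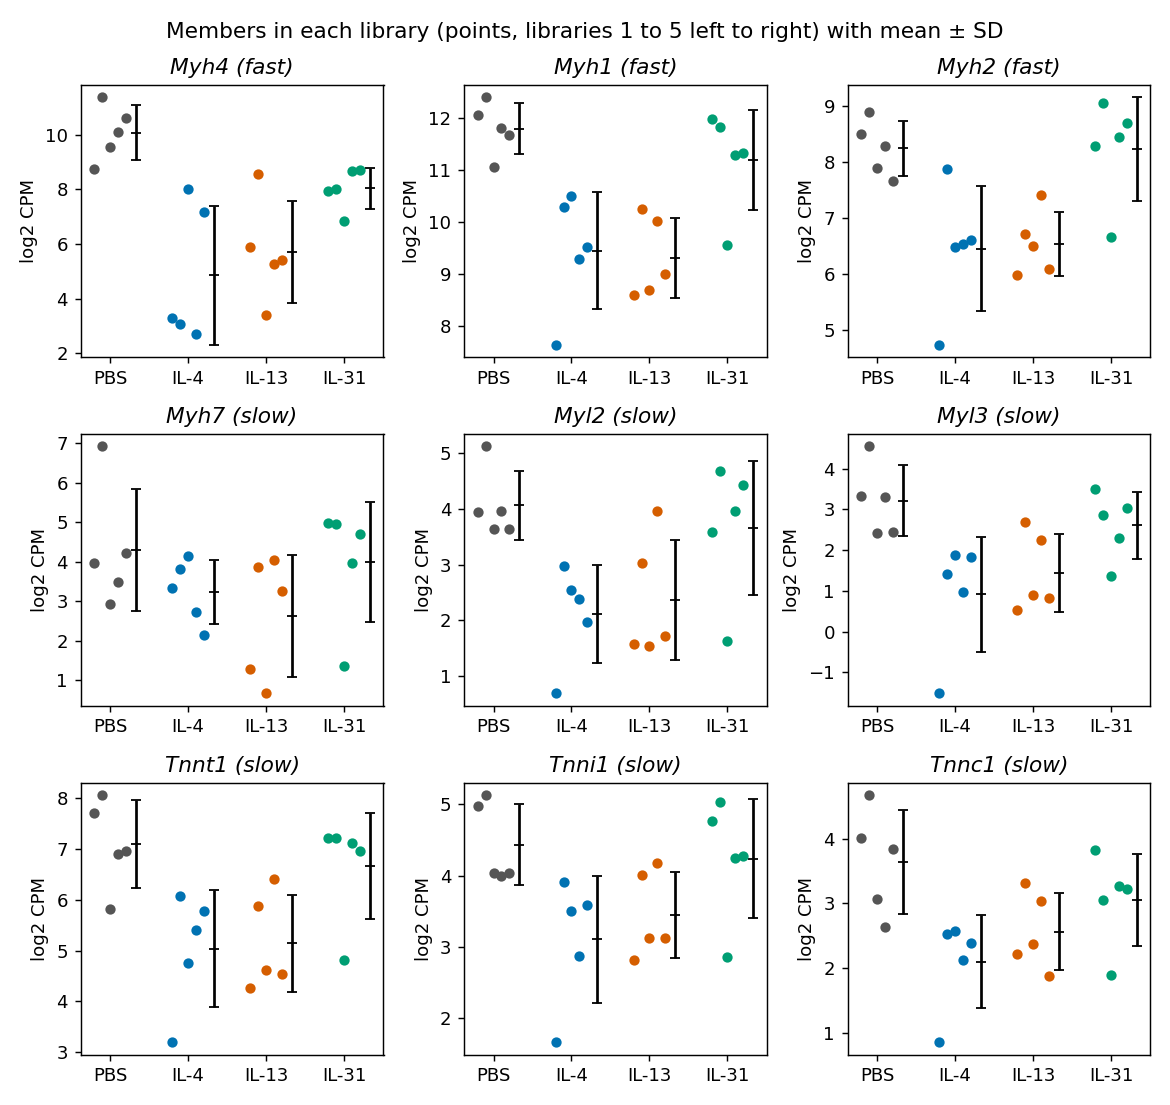
Log2 CPM of each member in every library, by group (points, libraries 1 to 5 from left to right), with the mean and SD of the 5 libraries beside them. Myh4 is lower in every cytokine library than in any PBS library, and IL-31 library 3 and IL-4 library 1 are the lowest of their groups for most members.

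Among the slow members, Myh7, the type I and ventricular myosin heavy chain (ENSMUSG00000053093, chr14:54970684-54994626, minus strand), had the largest spread between PBS libraries (SD 1.55). PBS libraries held 3.96, 6.93, 2.93, 3.48 and 4.23, so that library 2 was far above the rest. IL-4 libraries held 3.33, 3.83, 4.14, 2.72 and 2.14, IL-13 libraries 1.28, 3.86, 0.67, 4.05 and 3.27, and IL-31 libraries 4.99, 4.95, 1.36, 3.98 and 4.7. Every treated group overlapped PBS. Myh7 did not pass the test in any comparison: the log2 fold change was -1.08 with IL-4 (95% interval -2.74 to 0.58, limma adjusted p = 0.382), -1.68 with IL-13 (-3.34 to -0.02, limma adjusted p = 0.144) and -0.31 with IL-31 (-1.97 to 1.35). Without PBS library 2 the log2 fold change was -0.42 with IL-4 and -1.02 with IL-13. The IL-4 interval includes the IL-4 estimates of all other members but Myh4.

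The slow regulatory light chain Myl2 (ENSMUSG00000013936, chr5:122100951-122113472, plus strand) held 3.95, 5.13, 3.64, 3.97 and 3.64 in PBS. IL-4 libraries held 0.69, 2.98, 2.55, 2.39 and 1.97, all below PBS, and IL-13 libraries held 1.57, 3.04, 1.55, 3.96 and 1.73, of which library 4 reached the PBS range. IL-31 libraries held 3.59, 4.68, 1.63, 3.96 and 4.44. Myl2 fell with IL-4 (-1.95 ± 0.56, limma adjusted p = 0.0209) and IL-13 (-1.70 ± 0.56, limma adjusted p = 0.038), and the IL-31 estimate was -0.40.

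The slow essential light chain Myl3 (ENSMUSG00000059741, chr9:110741861-110769798, plus strand) held 3.33, 4.55, 2.43, 3.29 and 2.45 in PBS. IL-4 libraries held -1.52, 1.42, 1.88, 0.96 and 1.84, and the first of these corresponds to about 2 reads, under the 3-read floor. IL-13 libraries held 0.53, 2.69, 0.89, 2.24 and 0.83, and IL-31 libraries 3.5, 2.85, 1.36, 2.3 and 3.03. The IL-4 libraries were all below PBS, and the other treated groups overlapped it. Myl3 fell with IL-4 (-2.29 ± 0.60, limma adjusted p = 0.0131) and with IL-13 (-1.78 ± 0.60, limma adjusted p = 0.0429), and the IL-31 estimate was -0.60.

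Tnnt1, the slow troponin T that anchors the troponin complex to tropomyosin (ENSMUSG00000064179, chr7:4504570-4516382, minus strand), was the most abundant slow member per length, at a median of 56.5 CPM per kilobase of exon in PBS. It held 7.69, 8.05, 5.82, 6.9 and 6.96 in PBS and 3.2, 6.07, 4.75, 5.4 and 5.77 with IL-4. IL-13 libraries held 4.26, 5.88, 4.61, 6.41 and 4.53, and IL-31 libraries 7.21, 7.21, 4.81, 7.11 and 6.96. PBS library 3 lay within the range of both the IL-4 and the IL-13 libraries. Tnnt1 fell with IL-4 (-2.05 ± 0.57, limma adjusted p = 0.0184) and IL-13 (-1.95 ± 0.57, limma adjusted p = 0.0218), with -0.42 for IL-31.

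Tnni1, the slow inhibitory troponin (ENSMUSG00000026418, chr1:135779434-135810989, plus strand), held 4.97, 5.13, 4.04, 3.99 and 4.04 in PBS. IL-4 libraries held 1.66, 3.91, 3.5, 2.87 and 3.58, just below the PBS range at the top. IL-13 libraries held 2.82, 4.01, 3.13, 4.18 and 3.12, and IL-31 libraries 4.76, 5.03, 2.86, 4.25 and 4.28. Tnni1 fell with IL-4 (-1.33 ± 0.42, limma adjusted p = 0.0352), and the estimate of -0.98 with IL-13 did not pass (limma adjusted p = 0.111).

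Tnnc1, the calcium-binding troponin of slow and heart muscle (ENSMUSG00000091898, chr14:31208312-31211729, plus strand), held 4.01, 4.68, 3.07, 2.63 and 3.84 in PBS. IL-4 libraries held 0.85, 2.53, 2.58, 2.13 and 2.39, all below PBS. IL-13 libraries held 2.21, 3.31, 2.37, 3.04 and 1.88, and IL-31 libraries 3.83, 3.06, 1.89, 3.27 and 3.23, and both groups overlapped PBS. Tnnc1 fell with IL-4 (-1.55 ± 0.41, limma adjusted p = 0.0145), and -1.08 with IL-13 did not pass (limma adjusted p = 0.0704). The IL-31 estimates were -0.20 for Tnni1 and -0.59 for Tnnc1.

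Counted together, 8 of the 9 members were called lower with IL-4, all but Myh7, against a background of 9.63% of the 16461 genes tested. With IL-13 the count was 6 of 9 against 9.8%, with Myh7, Tnni1 and Tnnc1 not called although each had an unadjusted limma p under 0.05. With IL-31 limma called 0 of 9 against 1.2%, and 1 member, Myh4, had an unadjusted p under 0.05, where 10.2% of all genes were lower at that level. No member was called higher, a direction that held for 8.22% of genes with IL-4, 9.94% with IL-13 and 5.18% with IL-31. Every library was below every PBS library for 6 members with IL-4 (5.89% of all genes), 3 with IL-13 (5.01%) and 1 with IL-31 (1.43%). The median log2 fold change of the members was -1.95, -1.71 and -0.42 in the order IL-4, IL-13, IL-31, beside medians of all genes of -0.02, -0.03 and -0.04. The 3 comparisons share the PBS libraries, so the counts are not independent of each other. Because the members and the lists below were chosen with earlier results of these data known, their counts are descriptions and not an independent test.

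The counts rested in part on single libraries. Of the 8 IL-4 calls, 5 held without PBS library 2, when those of Myl2, Tnnt1 and Tnni1 were lost. The Tnni1 call was also lost without PBS library 1, IL-4 library 1 or IL-4 library 4, and that of Myl2 without IL-4 library 1. Of the 6 IL-13 calls only those of the 3 fast myosins held when PBS library 1, PBS library 2 or IL-13 library 1, 3 or 5 was left out, and that of Myl3 was also lost without PBS library 4. Without PBS libraries 1 to 3, in which the summed CPM of 5 epidermal keratin and related markers was 17876 to 24017 against 35425 to 75356 in the other 17 libraries, 2 calls were left with IL-4 (Myh4 at -5.50 and Myh1 at -2.29) and 0 with IL-13 by limma, where Myh4 was at -4.64 (limma adjusted p = 0.0611). The part of tissue composition in this was not tested. With quantile scaling, or with only the compared groups in the fit, the IL-4 call of Tnni1 and the IL-13 calls of Myl2 and Myl3 were lost.

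**Figure D2:**
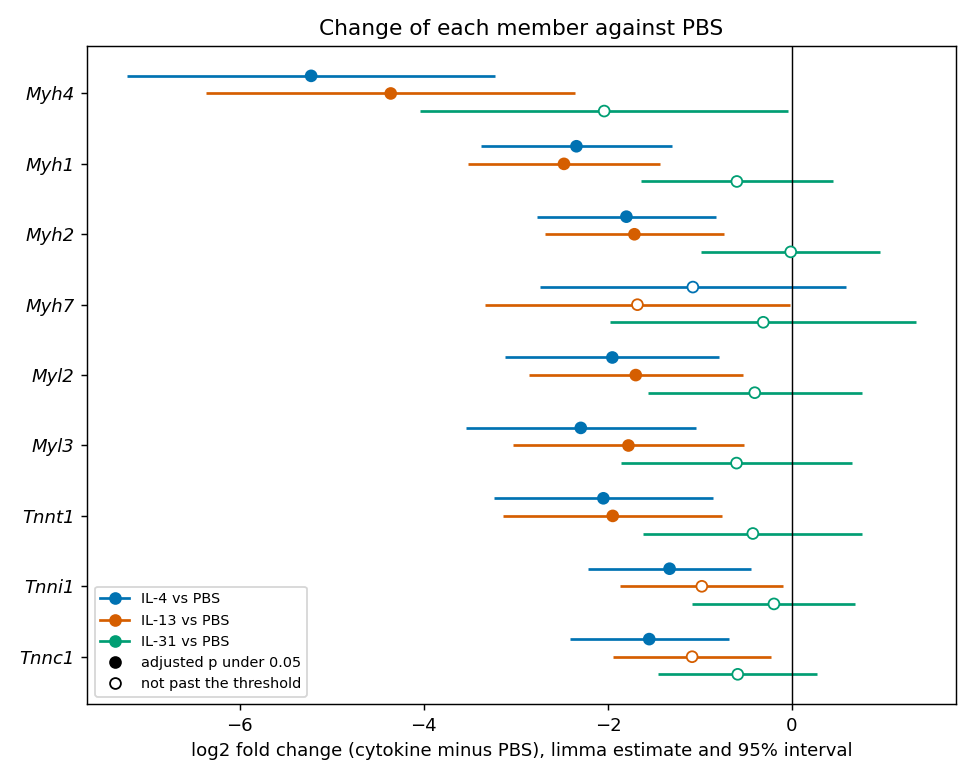
Log2 fold change of each member against PBS with its 95% interval from limma, on the horizontal axis; filled points passed the adjusted threshold of 0.05. Myh4 has the most negative estimate for each cytokine, and no IL-31 point is filled.

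PBS had the highest group mean and IL-31 the next for all 9 members. IL-4 was lowest for 7 members and IL-13 for Myh1 and Myh7. Neighbours in this order did not differ past the threshold in limma's tests between cytokines. Between IL-4 and IL-13, 0 members were called and 0 had an unadjusted p under 0.05, where 0% of all genes were called and 2.29% were lower in IL-4 at the unadjusted level. Between IL-4 and IL-31, 0 were called (0% of all genes), yet 8 members, all but Myh7, were lower in IL-4 at an unadjusted p under 0.05 (6.71% of all genes). Between IL-13 and IL-31, 0 were called (0% of all genes) and 5 were lower in IL-13 unadjusted (5.69% of all genes). The difference between IL-4 and IL-31 was -1.79 for Myh2 (95% interval -2.76 to -0.81, limma adjusted p = 0.174) and -3.18 for Myh4 (-5.19 to -1.18, limma adjusted p = 0.188). Without IL-31 library 3, in which the summed skeletal muscle markers stood at 536 CPM against 1743 to 2441 in the other IL-31 libraries, 4 members were called lower in IL-4 than in IL-31 and 2 lower in IL-13 than in IL-31. The share of all genes called in that fit is not given here, so whether these counts exceed it cannot be read.

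The 3 fast myosins can be compared with Myh7 per length, as CPM per kilobase of annotated exon. In PBS the median level was 566 for Myh1, 182 for Myh4, 43.6 for Myh2 and 1.79 for Myh7. With IL-4 these medians were 117 for Myh1, 1.59 for Myh4, 13.0 for Myh2 and 1.15 for Myh7. Thus the median of Myh4 stood between Myh1 and Myh2 in PBS and near Myh7 with IL-4. The IL-4 median rested on the split between its libraries: it was 12.7 or 12.8, near that of Myh2, when any 1 of the 3 low libraries (1, 2 and 4) was left out. As a share of the summed level of the 4, Myh4 took 24.4% ± 9.55 in PBS, 7.26% ± 7.46 with IL-4, 9.71% ± 8.68 with IL-13 and 10.1% ± 3.84 with IL-31 (SD, n = 5 each). By library the Myh4 share was 9.08, 32.2, 25.3, 23.0 and 32.6% in PBS, and 5.66, 6.23, 12.5, 13.3 and 13.0% with IL-31. It was 4.20, 0.598, 15.1, 0.932 and 15.5% with IL-4, and 12.4, 23.5, 2.19, 3.23 and 7.23% with IL-13. PBS library 1 stood below the other PBS libraries and inside the range of each treated group. Myh1 took 69.8% ± 8.88 in PBS and 81.9% ± 4.48, 78.9% ± 5.45 and 80.1% ± 5.02 with IL-4, IL-13 and IL-31 in turn, and Myh7 took a mean of 0.374% in PBS and at most 3.02% in any library.

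**Figure D3:**
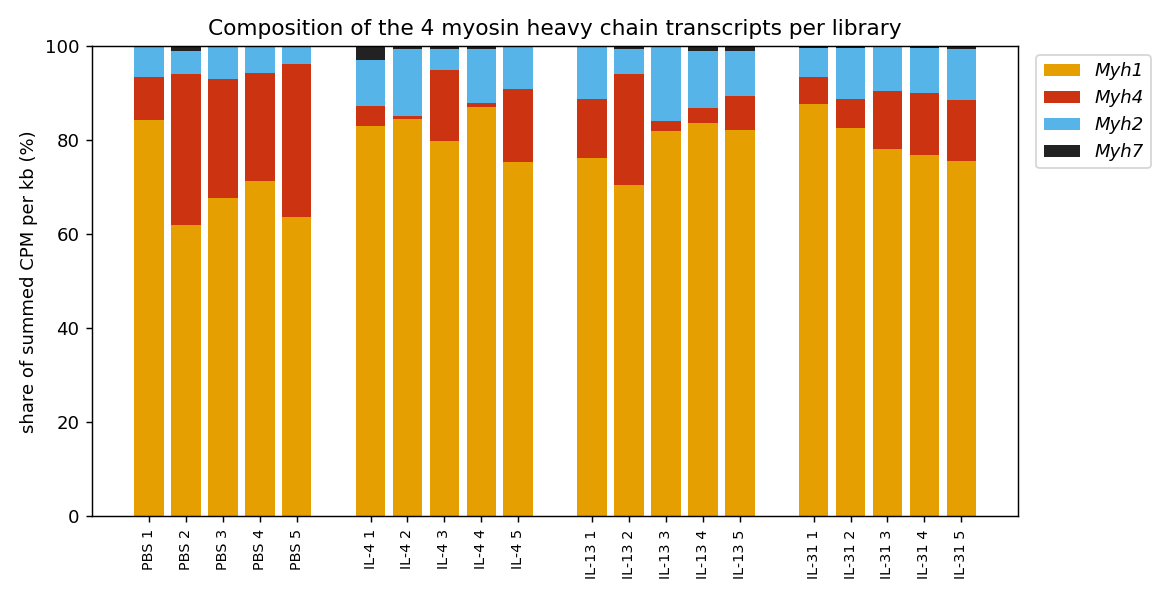
Share of Myh1, Myh4, Myh2 and Myh7 in their summed CPM per kilobase in each library (stacked bars, percent). The Myh4 band is 23.0 to 32.6% in 4 PBS libraries and 9.08% in PBS library 1, and it is under 16% in all treated libraries except IL-13 library 2 at 23.5%.

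A ratio of 2 genes within a library does not depend on how the library was scaled. The log2 ratio of Myh4 to Myh1 was -3.29, -1.02, -1.5, -1.71 and -1.04 in the PBS libraries. It was -4.36, -7.2, -2.48, -6.59 and -2.36 with IL-4, -2.69, -1.67, -5.28, -4.77 and -3.58 with IL-13, and -4.03, -3.81, -2.72, -2.61 and -2.62 with IL-31. PBS library 1 was lower than the other 4 PBS libraries, and IL-13 library 2 was the only treated library within the range of those 4. The difference from PBS was -2.88 with IL-4 (95% interval -5.60 to -0.26, exact permutation p = 0.0317), -1.88 with IL-13 (-3.74 to -0.02, exact permutation p = 0.0476) and -1.44 with IL-31 (-2.64 to -0.18, exact permutation p = 0.0317).

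The log2 ratio of Myh4 to Myh2 was 0.25, 2.48, 1.66, 1.82 and 2.96 in PBS and -0.35, -1.03, 0.18, 0.22 and 0.01 with IL-31, where each of the 5 libraries was below all PBS libraries. The IL-31 difference was -2.03 (95% interval -3.13 to -0.85, exact permutation p = 0.00794, the smallest that 5 libraries against 5 can give). With IL-4 the ratios were -1.44, -4.79, 1.55, -3.84 and 0.56, a difference of -3.43 (exact permutation p = 0.0397). With IL-13 they were -0.07, 1.87, -3.07, -2.16 and -0.65, a difference of -2.65 (exact permutation p = 0.0317).

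The log2 ratio of Myh4 to Myh7 was 4.79, 4.44, 6.62, 6.61 and 6.39 in PBS, and -0.04, -0.75, 3.88, -0.01 and 5.03 with IL-4. The ratio was thus below 0 in 3 IL-4 libraries and above 3 in the other 2. The difference was -4.15 with IL-4 (exact permutation p = 0.0238), -2.68 with IL-13 (exact permutation p = 0.0317) and -1.73 with IL-31 (exact permutation p = 0.0476). All 9 ratio tests were two-sided and had an adjusted p of 0.0476 over the 9, just inside the threshold. Each of the 9 calls held in only 2 to 4 of the 10 fits that left out 1 library, with adjusted p reaching 0.0873 at most and the sign unchanged throughout. The 3 differences for a ratio share the PBS libraries and all 9 share Myh4.

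**Figure D4:**
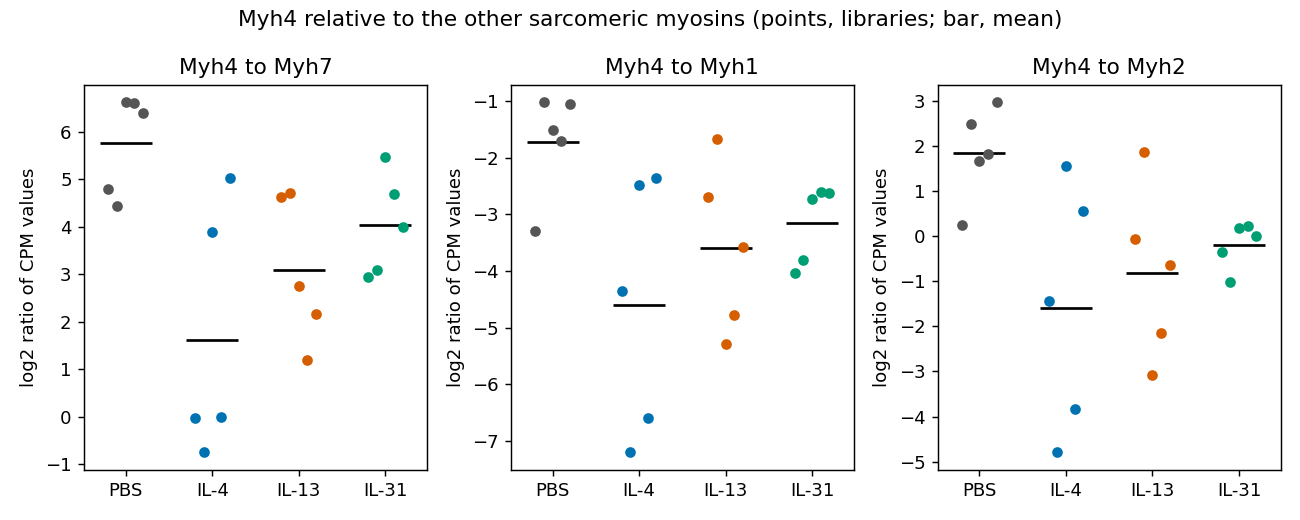
Log2 ratio of the CPM of Myh4 to that of Myh7, Myh1 and Myh2 in each library (points) with group means (bars). For Myh4 to Myh2, all 5 IL-31 libraries, from -1.03 to 0.22, are below the PBS libraries, from 0.25 to 2.96.

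The fast heavy chains share part of their sequence, which limits how some reads can be told apart. Of all runs of 50 bases in the annotated coding transcripts of Myh4, 18.9% also occurred in another of 7 striated myosin heavy chain genes. That share was 25.4% for Myh1, 26.9% for Myh2 and 21.2% for Myh7, the last all but entirely with the cardiac gene Myh6. How such reads were counted is not stated in the labels, so the levels, shares and ratios of these 4 genes are uncertain. The percentages do not bound the error of a gene that shares runs with a more abundant one. Of the runs of Myh1, the most abundant, 18.7% also occurred in Myh2 and 10% in Myh4. Exons of antisense genes cover 8.11% of the exon bases of Myh1 and 3.32% of those of Myh2, and for Myh7 those of Gm31251, Mhrt and Gm29015 cover 6.07, 5.62 and 1.65%. Exons of opposite-strand genes cover 3.08% for Myl2 and 4.65% for Myl3. Whether counting used strand is not stated either.

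The slow members had fast counterparts that replace them in fast fibres, which allows a share of slow transcript per pair, again per kilobase of exon. These shares were computed after the values were seen and carry no test. Tnni1 made up 1.19 to 1.81% of Tnni1 plus Tnni2 in PBS, and 2.46 to 4.08% with IL-4, 2.65 to 5.02% with IL-13 and 2.03 to 2.94% with IL-31, so that every treated library was above every PBS library. Tnnc1 made up 0.539 to 1.27% of Tnnc1 plus Tnnc2 in PBS, 1.57 to 2.38% with IL-4 and 1.93 to 2.98% with IL-13, both without overlap, while IL-31 at 0.830 to 1.63% overlapped PBS. Tnnt1 made up a larger part of its pair with Tnnt3, with a median of 9.39% in PBS, 15.3% with IL-4, 13.9% with IL-13 and 12.7% with IL-31, and the ranges of all treated groups overlapped PBS. For the light chains, Myl2 beside Mylpf had medians of 1.44, 2.69, 2.67 and 2.25% for PBS and then the 3 cytokines in the same order, and Myl3 beside Myl1 had 2.32, 3.41, 4.50 and 3.05%. In every library the fast partner was the more abundant of each pair.

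Across the classes, the mean log2 CPM of the 3 fast members exceeded that of the 6 slow members by 5.58 ± 0.42 in PBS, 4.17 ± 0.75 with IL-4, 4.26 ± 0.48 with IL-13 and 5.12 ± 0.25 with IL-31 (SD, n = 5 each). These are CPM values not divided by length, so only the change of the gap between groups can be read. The gap was 5.12 to 6.02 in PBS and 3.44 to 5.1 with IL-4. Without Myh4, the mean of Myh1 and Myh2 exceeded that of the slow members by 5.56 ± 0.42 in PBS, 5.20 ± 0.29 with IL-4, 4.99 ± 0.30 with IL-13 and 5.68 ± 0.14 with IL-31. The smaller gap with IL-4 thus came mostly from Myh4, and with IL-31 the gap without Myh4 was larger than in PBS by less than the SD of the PBS libraries. Together the 9 members took 0.350 to 0.962% of all CPM in PBS, 0.0274 to 0.190% with IL-4, 0.0505 to 0.188% with IL-13 and 0.0975 to 0.478% with IL-31. IL-4 and IL-13 libraries were all below PBS in that share, and 3 of the 5 IL-31 libraries lay within the PBS range.

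Within groups the other members tended to move with Myh1 from library to library, Myh4 the least. After group means were removed, Pearson's r with Myh1 over the 20 libraries was highest for Tnni1 (r = 0.94, Spearman's rho = 0.87, permutation p = 2.0e-05 for r). It was 0.50 for Myh4 (rho = 0.44, permutation p = 0.065 for r and 0.1 for rho), the lowest of 8 relations. The other 6 members lay between 0.70 for Myh7 and 0.91 for Myl3, with Benjamini-Hochberg adjusted permutation p of at most 8.3e-04. Without IL-4 library 1 and IL-31 library 3, the libraries farthest from the median, r was 0.86 for Tnni1 and 0.42 for Myh4. All values of a library share its tissue sample and its depth.

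The genes whose pattern over the 20 libraries was most like that of Myh4 were Pvalb, the calcium buffer parvalbumin of fast fibres (r = 0.97), Mybpc2, fast myosin binding protein C (r = 0.96), Mylk4 (r = 0.95), Actn3, the fast-fibre alpha-actinin (r = 0.94), and Asb11 (r = 0.92). With group means removed these r were 0.92, 0.89, 0.85, 0.84 and 0.76. The genes most like Myh7 were Tmem201 (r = 0.89), Tns1 (r = 0.88), Dnajc27 (r = 0.86), Adcy2 (r = 0.86) and Dnajb5 (r = 0.86). With group means removed these r were 0.88, 0.86, 0.83, 0.92 and 0.82. None of these genes listed for Myh7 is a sarcomere gene. The members were left out of both rankings, so no member could appear. Sarcomere genes outside the members could appear, as Mybpc2 and Actn3 did for Myh4. No test was attached to these ranks.

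The fast counterparts of the members all fell with IL-4 and IL-13. All 10 were called lower in each (limma), with median log2 fold changes of -2.88 and -2.85. The fast troponins Tnnt3, Tnni2 and Tnnc2 fell with IL-4 to log2 fold changes of -2.81, -2.62 and -2.51, as did the fast light chain Mylpf (-2.83). Mybpc2 at -5.08, Pvalb at -4.67 and Actn3 at -3.98 were the most negative of the list with IL-4, beside Myh4 at -5.22. These 3 were also among the genes most like Myh4 over the same libraries, group differences included, so a large fall is no separate result. Mybpc2 averaged -0.07 log2 CPM with IL-4, and its lowest value over all libraries, -2.68, was the lowest of the table. With IL-31 limma called 0 of 10 and 0 had an unadjusted p under 0.05, and the median was -0.97.

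Other slow or oxidative fibre genes were called lower in 9 of 12 cases with IL-4 and in 9 of 12 with IL-13, with medians of -2.01 and -2.14. Myl6b, a slow light chain, fell by 1.72 on the log2 scale with IL-4, and Mybpc1, slow myosin binding protein C, fell by 2.19. The 3 that were not called in either were Myh7b at -0.29, Atp2a2, the calcium pump of slow and heart muscle that other cells also make, at -0.64 (limma adjusted p = 0.0512), and Tpm3, a tropomyosin also made outside muscle, at -0.17. Limma called 0 of 12 with IL-31, and 0 had an unadjusted p under 0.05. Sarcomere genes common to fibre types were called lower in 11 of 11 cases with each of IL-4 and IL-13, with Acta1 (skeletal actin) at -2.94, Ttn (titin) at -2.50, Neb (nebulin) at -2.44 and Tpm1 at -1.94 for IL-4. With IL-31 limma called 0 of 11, and 2 had an unadjusted p under 0.05.

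Genes of developing or regenerating muscle were called lower in 4 of 8 cases with IL-4 and 5 of 8 with IL-13, and Myh13 and Myf5 were not analysed here. Myh3, embryonic myosin heavy chain, fell by 1.88 and Myh8, the perinatal one, fell by 2.01 with IL-4. Myl4 at -0.48 and Tnnt2 at -0.06 were not called. With IL-31 limma called 0 of 8, with 1 at an unadjusted p under 0.05. None of the 8 was called higher in any of these comparisons. Pax7, a marker of muscle stem cells, was at 0 in 2 of the 20 libraries. It was called lower with IL-13 (-1.96, limma adjusted p = 0.0213) and not with IL-4 (-1.49, limma adjusted p = 0.0757).

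Heart muscle shares Myh7, Myl2, Myl3 and Tnnc1 with slow fibres. Of 7 cardiac genes 3 were listed: Myh6 at -0.79, Tnni3 at -0.48 and Nppb at -2.12 with IL-4, none called (limma; 1 had an unadjusted p under 0.05). With IL-13 Tnni3 fell by 0.91, and with IL-31 limma called 0 of 3, with 1 at an unadjusted p under 0.05. Myl7, Nppa, Ryr2 and Nkx2-5 were not analysed here. The summed CPM of 2 cardiac markers was 5.15 to 21.7 in PBS, 4.43 to 7.75 with IL-4, 2.37 to 5.18 with IL-13 and 4.17 to 5.52 with IL-31.

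Smooth muscle genes were called lower in 2 of 8 cases with IL-4, Smtn at -0.34 and Des, the intermediate filament of all muscle types, at -2.36. Only Des, at -2.36, was called with IL-13, and both were named after their values were seen. The smooth muscle myosin Myh11 stood at -0.28, Acta2 at -0.42, Tagln at -0.39 and Cnn1 at 0.18 with IL-4, not called. With IL-31 limma called 0 of 8, and 0 had an unadjusted p under 0.05. Of the non-muscle myosin heavy chains, Myh10 fell by 0.82 with IL-4 and fell by 0.66 with IL-13, and Myh14 rose by 0.40, 0.32 and 0.44 for the 3 cytokines in the same order. Myh9 was at 0.00, 0.15 and 0.15 and was not called.

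Regulators of fibre type were mixed. With IL-4, 5 of the 12 reported here were called lower and 2 higher, and with IL-13 6 lower and 1 higher. Ppargc1a, a driver of oxidative fibres, fell by 1.35 with IL-4, and Six4, a factor of the fast programme, fell by 1.72. Ppargc1b at -0.56 was not called. The genes called higher, named after their values were seen, were Nfatc1 (0.36 with IL-4) and its pathway's target Rcan1 (0.50 with IL-4, 0.40 with IL-13 and 0.48 with IL-31), both of which other cell types of the ear also make. With IL-31 Rcan1 was the 1 gene called higher and limma called 0 of 12 lower, with 0 lower at an unadjusted p under 0.05.

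**Figure D5:**
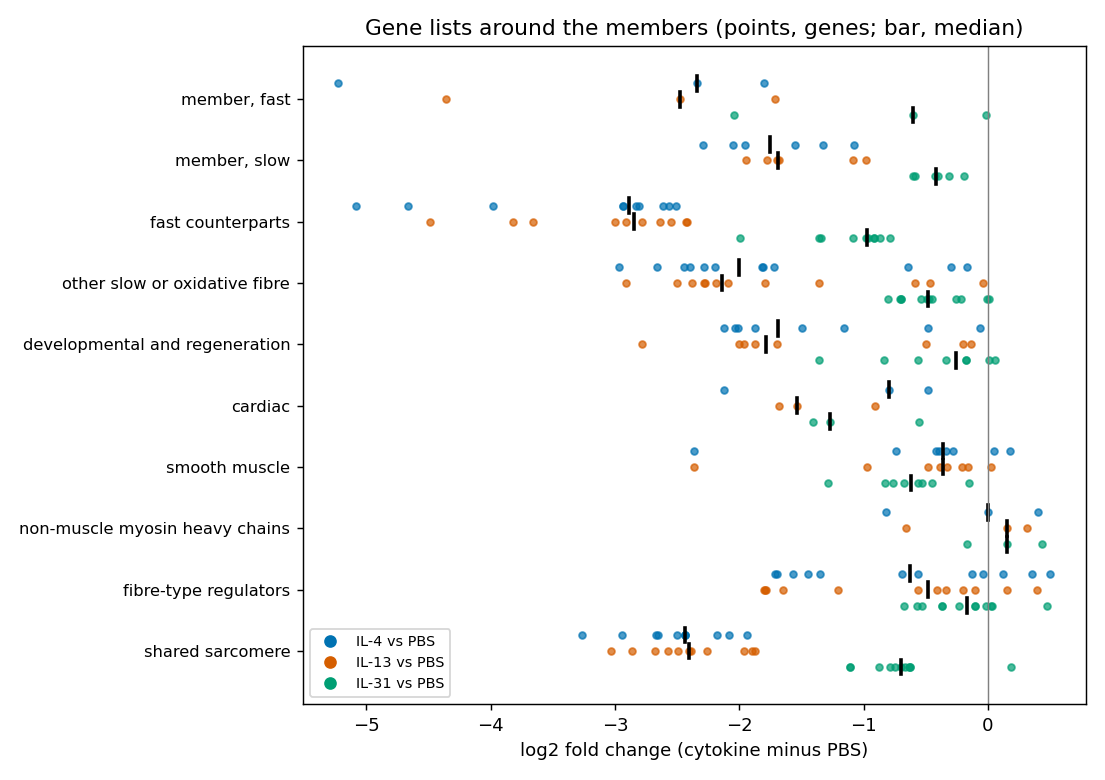
Log2 fold change against PBS of each tested gene in the 2 member classes and in 8 related lists (points, by cytokine) with list medians (bars). IL-4 and IL-13 medians are below -2 for the fast, shared and other slow lists and near -0.36 for smooth muscle, and IL-31 medians of the skeletal muscle lists lie between -0.97 and -0.26.

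Markers of other cells differed between groups and between libraries of a group. Summed endothelial markers (4 of 4 listed) ran from 87.7 to 140 CPM in PBS, 54.2 to 91.4 with IL-4, 48.3 to 85.8 with IL-13, without overlap with PBS, and 83.1 to 119 with IL-31. The median sum of 4 adipocyte markers was 202 CPM in PBS, 103 with IL-4, 82.6 with IL-13 and 155 with IL-31. The median sum of 4 dermal markers was 7726 CPM in PBS, 4228 with IL-4, 4470 with IL-13 and 6237 with IL-31. Summed epidermal markers had medians of 24017, 43204, 52192 and 46194 CPM in the same order of groups. The summed CPM of 6 neutrophil markers was 368, 704 and 519 in PBS libraries 1, 3 and 5 and 25.5 and 18.9 in libraries 2 and 4. It was 9.69 to 206 with IL-4, where library 1, the lowest for most members, was also lowest in this sum. With IL-13 it was 10.7 to 431. It was 11.7 to 312 with IL-31, where library 3, the lowest in members, was highest. A relation between the neutrophil markers and the members was not tested. Summed skeletal muscle markers ran from 1715 to 5105 CPM in PBS, 96.6 to 894 with IL-4, 276 to 1022 with IL-13 and 536 to 2441 with IL-31. Summed smooth muscle markers (4 of 4 listed) ran from 67.6 to 153 CPM in PBS, 45.0 to 123 with IL-4, 40.9 to 159 with IL-13 and 61.0 to 76.8 with IL-31. The part of tissue composition in the members' values was not tested.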

How the data were processed

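Total RNA of mouse ear pinnae was made into libraries with a NEBNext Ultra II kit and sequenced, per the labels' protocols. The authors deposited log2 CPM values in 1 table, made with edgeR on build GRCm38, per the submitters' processing notes; the aligner and the counter were not given in the sources used here. The lowest value in each library was -2.684. Of the low values 80.1 to 84.6% came out as whole reads (tolerance 0.02), which was not nearly all, and count tests were therefore not used. Because of the offset, fold changes of low genes are understated.

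Identifiers were matched to GENCODE M21 (16644 of 16669). Genes with a log2 CPM of at least 0 in at least 5 libraries were tested (16461, with 208 removed). One limma model with trend was fitted to all 20 libraries, with Benjamini-Hochberg adjustment at 0.05 over the genes of each comparison. Log2 ratios of 2 genes were compared by two-sided exact permutation tests of library labels, and their intervals come from inverting that test. Correlations used 100000 permutations within groups. The fit was tested on simulated data. The members and gene lists were chosen with earlier results of these data known. The text names the members, the first listed genes of each list up to 4, and the 5 non-member genes most like Myh4 and Myh7. Other names are mostly stated as such, but Tpm3, Myl1 and Pax7 carry no such note beside their values. One planned gene of the fibre-type regulator list is not reported here. Promoters came from RefSeq (GRCm38.p6), where all 9 members were matched, and the TATAAA search was added after the design. Alternatives were other filters, variance models, quantile scaling, log2(CPM + 1), the compared groups alone, a replicate block, and each library left out. R 4.3.3, limma 3.58.1, python 3.11.15, pandas 2.3.3, numpy 2.4.6, scipy 1.17.1 and matplotlib 3.10.9 were used.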

Additional observations from a re-analysis of the deposited data

Results flagged for a closer look

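In 6 of the 48 combinations of a group with a member or ratio that were examined, 1 library stood apart from the other 4 by Dixon's criterion, which chance alone meets in about 1 group in 20. IL-31 library 3 was low for Myh1 (log2 CPM 9.56 against 11.28 to 11.97 in the others), Myh7 (1.36 against 3.98 to 4.99) and Tnnt1 (4.81 against 6.96 to 7.21). IL-4 library 1 was low for Myl3 (-1.52 against 0.96 to 1.88) and Tnnc1 (0.85 against 2.13 to 2.58). PBS library 2 was high for Myl2 (5.13 against 3.64 to 3.97). All members of a library share its tissue sample and depth, so these 6 are not independent.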

How the results depend on the processing

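Among single members, 461 values kept their direction and side of the threshold across the alternatives, 48 lost a call, 2 gained one and 11 reversed. Leaving out 1 library at a time gave 5 to 8 members called lower with IL-4, 3 to 7 with IL-13, 0 to 4 for IL-4 against IL-31 and 0 to 2 for IL-13 against IL-31. The shares of all genes called in such fits are not given here. In fits chosen after seeing the data, 2 members were called with IL-4 and 0 with IL-13 without PBS libraries 1 to 3, and 2 with IL-4 without PBS library 2 and IL-4 library 1, where Myh4 was at -4.51 and Myh1 at -1.74. All IL-4 estimates were smaller in size in that last fit. Myh2 was at -1.21, Myl3 at -1.35 and Tnni1 at -0.79, against -1.80, -2.29 and -1.33 with all libraries. These fits also hold fewer libraries, and the part of that in the lost calls was not tested. All reversals were in the uncalled IL-31 values. Leaving out 1 library moved Myh2 from -0.22 to 0.38, Myh7 from -0.66 to 0.35, Myl2 from -0.66 to 0.10, Tnnt1 from -0.74 to 0.039 and Tnni1 from -0.39 to 0.15. Without PBS libraries 1 to 3, Myh2 was 0.26, Myh7 0.14 and Tnni1 0.22; the cause was not tested.

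For the ratios, leaving out 1 library gave, with the cytokines in the order IL-4, IL-13, IL-31, -5.001 to -3.56, -3.09 to -2.21 and -2.09 to -1.46 for Myh4 to Myh7. It gave -3.44 to -2.23, -2.37 to -1.46 and -1.84 to -1.22 for Myh4 to Myh1, and -4.21 to -2.63, -3.32 to -2.08 and -2.42 to -1.75 for Myh4 to Myh2. A call was kept in 28 of these 90 fits. With log2(CPM + 1) all 9 calls were kept.

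The replicate numbers of the labels showed no general pairing of the libraries over all genes. Same-numbered libraries had r from -0.24 to 0.49 in their deviations (median 0.04, 10 of 30 pairs above 0.1), and 3 of 20 libraries correlated best with their own number. The number 2 libraries of PBS, IL-13 and IL-31 were the most alike, with r of 0.40 to 0.49. With the replicate block, limma called the same numbers of members, 8, 6 and 0. For IL-4 the adjusted p was higher with the block for Myh4 and Tnnc1 and lower for the other members. Myl2, for example, had a limma adjusted p of 0.00639 with the block and 0.0209 without it. The exact sign-flip test of the 5 same-numbered pairs, as a block for the ratios, can give no p below 0.0625, so none could pass. Its differences, in the same order of cytokines, were -4.15, -2.68 and -1.73 for Myh4 to Myh7, -2.88, -1.88 and -1.44 for Myh4 to Myh1 and -3.43, -2.65 and -2.03 for Myh4 to Myh2 (adjusted exact p 0.0804 to 0.188).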
